A study of Mus musculus with 36 samples.

Results

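The comparison described here set the palates of mouse embryos heterozygous for the TGFβ3 null allele (HT) against those of wild-type embryos (WT) at embryonic day 16.5, and asked which genes differ when a single functional copy of Tgfb3 is present. Its members were chosen by genotype and age alone. They are 8 of the 36 libraries of the series, from 4 of its 18 animals: 2 HT and 2 WT animals, each sequenced in lanes 6 and 7. HT embryos carried the genotype TGF-beta3 +/-, and all were of the C57BL/6 strain, from matings of heterozygous parents, so a heterozygous mother was common to both groups. The tissue was labelled palatal shelves, and poly(A)+ RNA was sequenced without strand. The sources do not say whether a replicate is 1 embryo or whether replicates came from separate litters, so p-values measure only the spread between these replicates. Homozygous null palates (KO, 2 animals) of the same age, and HT and WT palates of days E14.5 and E15.5 with 2 animals a group, are used only for comparison.

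TGFβ3 is a secreted growth factor. It is made as a latent complex that is held in the matrix by binding proteins, and once released it signals through paired type I and type II receptor kinases to the SMAD transcription factors. In the developing palate it is made by the epithelium at the medial edge of the shelves and is needed for the shelves to fuse, and mice that lack both copies are born with a cleft palate. By E16.5 the wild-type palate has closed and its oral epithelium, bone and connective tissue are maturing.

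Levels are in FPKM (fragments scaled to transcript length and to the number of mapped fragments), assembled by the authors for each library. They were averaged over the 2 lanes of an animal, or taken from 1 lane where the other had no value. In the 8 libraries, between 13244 and 13532 genes had a value, and the authors' 95% confidence interval of a locus had a median half-width of 13.3% to 14.8% of its FPKM. Animals of a genotype were not the closest to each other. Across 12032 genes, Pearson's r of log2(FPKM + 1) was 0.965 between the HT animals and 0.939 between the WT animals, but 0.972 between HT animal 1 and WT animal 2, and 0.966 between HT animal 2 and WT animal 1. These correlations are across genes, which are not independent replicates. Loci of the Y-linked genes Ddx3y, Eif2s3y, Kdm5d and Uty were present in HT animal 2 and in neither WT animal nor HT animal 1, and Xist, transcribed from the inactive X chromosome, stood at 0.038 FPKM in HT animal 2 against 99.7 in HT animal 1 and 63.1 and 101.1 in the WT animals. Both KO animals had loci of the 4 Y-linked genes, so at E16.5 the sexes were mixed in HT only. The part of sex in the values below was not tested.

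The targeted gene itself was not lower in the heterozygous palate. Tgfb3, on chr12:87397694-87419991 of mm9, minus strand, with 7 exons, stood at 37.3 FPKM in HT animal 1 and 37.1 FPKM in HT animal 2, against 27.6 and 35.3 FPKM in the WT animals. Both HT levels were above both WT levels. The log2 difference, HT minus WT, was 0.25 (SE 0.16, 95% interval -0.11 to 0.60, limma adjusted p = 0.814). The KO animals had 42.6 and 42.0 FPKM. A level summed over all exons does not read the mutated site, so it is no check of the genotype labels. Loci lying wholly inside the introns of Tgfb3 were found in HT and KO libraries only. None of the 4 WT libraries had any, each HT animal had 1 in 1 of its 2 lanes and none in the other, and each of the 4 KO libraries had 1 to 3. The HT loci were at chr12:87400305-87400802 (7.23 FPKM, HT animal 1, lane 7) and chr12:87400220-87400408 (14.4 FPKM, HT animal 2, lane 6). Both were in intron 5 and overlapped the KO loci at chr12:87400213-87400751 and chr12:87400210-87400773. Each of the 4 KO libraries also had a locus in intron 6, where no HT library had one.

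The other genes of the TGFβ pathway were fixed as lists by role, and none of their members was called different, a call being an adjusted p under 0.05 with a change of at least 2-fold. Among the 8 ligands tested, the median log2 difference was 0.19, against -0.05 over all genes tested. It was 0.012 without HT animal 2, 0.05 without WT animal 1 and 0.32 without WT animal 2. Tgfb1 stood at 27.8 and 24.3 FPKM in the HT and 17.8 and 24.1 FPKM in the WT animals (log2 difference 0.31, SE 0.19, adjusted p = 0.811). Tgfb2 stood at 14.5 and 17.5 FPKM against 13.5 and 15.6. The groups did not overlap for Tgfb1 but did for Tgfb2. Inhba, the activin A subunit, had 8.73 and 5.37 FPKM in HT and 3.32 and 5.19 FPKM in WT. Gdf11 was the single ligand with an unadjusted p under 0.05, at 5.79 and 8.14 FPKM in HT and 9.07 and 10.3 FPKM in WT (log2 difference -0.44, adjusted p = 0.806).

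The 7 receptors and co-receptors tested had a median log2 difference of -0.19, which was -0.017 without HT animal 1, -0.11 without HT animal 2 and -0.10 without WT animal 2, and none had an unadjusted p under 0.05. The type I receptor Tgfbr1 was at 28.4 and 21.5 FPKM in HT against 26.6 and 30.4 FPKM in WT, and the type II receptor Tgfbr2 at 17.6 and 15.5 FPKM against 15.1 and 15.3. Groups overlapped for Tgfbr1, and the HT levels of Tgfbr2 lay just above those of WT. The co-receptor endoglin, Eng, spread the most, from 14.5 to 19.6 FPKM in HT and from 18.6 to 30.2 FPKM in WT.

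The genes of latency and activation stood somewhat higher in HT. Of 12 tested, 4 had an unadjusted p under 0.05, all higher in HT, while 2.08% of all 13183 genes tested were higher and 3.97% lower at that threshold. The list's median log2 difference was 0.25, and 0.11 in lane 6 alone. In 5 of the 10 that were measured in all 4 animals, both HT animals lay above both WT animals, and in none did they lie below; over all 12277 such genes the shares were 12.4% above and 19.2% below. The 4 genes encode proteins of the extracellular matrix. Ltbp1, a latent TGFβ binding protein, was at 22.5 and 17.1 FPKM in HT and 14.0 and 15.2 FPKM in WT (log2 difference 0.40, adjusted p = 0.797). Ltbp4, of the same family, was at 34.2 and 43.3 FPKM against 24.1 and 29.9 (0.50, adjusted p = 0.797). Fbn1, fibrillin 1, which anchors these complexes in microfibrils, was at 14.3 and 19.1 FPKM against 9.54 and 10.1 (0.70, adjusted p = 0.797). Emilin1, which restrains the processing of the TGFβ precursor, was at 75.2 and 71.8 FPKM against 56.9 in WT animal 1, with no value in WT animal 2. Its value came from lane 6 alone in HT animal 1 and from lane 7 alone in WT animal 1. HT animal 2 had 70.7 FPKM in lane 7. Thbs1, an activator of the latent complex, had the lower mean level in HT, at 37.2 and 32.0 FPKM against 32.6 and 49.5, with overlapping groups.

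**Figure D1:**
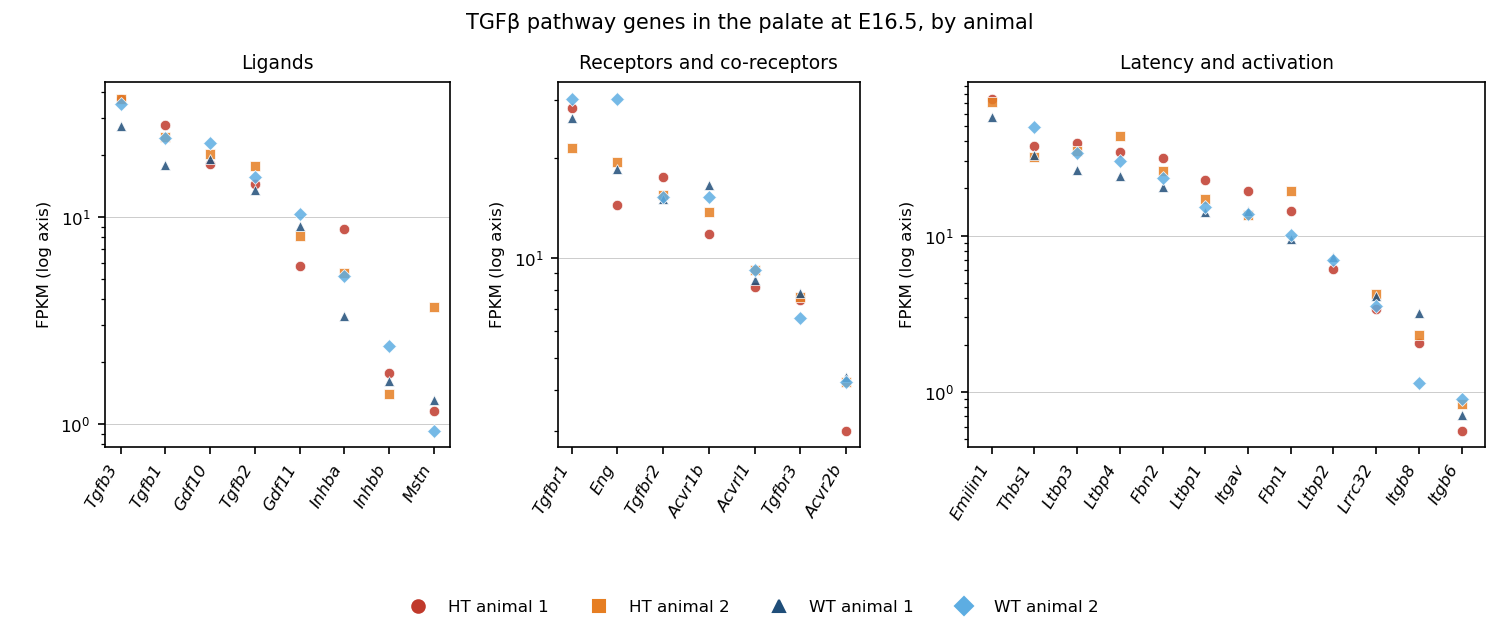
FPKM on a log axis of the TGFβ ligands, receptors and latency genes in each of the 4 animals (points; each the mean of 2 lanes), ordered by mean level. Tgfb3 is the highest ligand, with both HT points above both WT points, and for Ltbp1, Ltbp4 and Fbn1 the HT points also lie above the WT points.

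Downstream of the receptors the genotypes were close. The 17 SMADs and SMAD regulators had a median log2 difference of 0.03, between -0.006 and 0.06 when 1 animal was left out. None had an unadjusted p under 0.05. The groups were apart for 1 of 16, while 12.4% of all genes lay above and 19.2% below. That gene was the SMAD co-repressor Ski (51.6 and 52.2 FPKM in HT, 40.2 and 46.6 FPKM in WT). Smad3, a SMAD that carries the TGFβ signal, had 16.4 and 17.5 FPKM against 15.3 and 20.4. The 29 genes that respond to TGFβ had a median of 0.08, and 2 had an unadjusted p under 0.05, both higher in HT. Of these, Col3a1, the type III collagen chain, stood at 773 and 633 FPKM in HT and 468 and 493 FPKM in WT (log2 difference 0.54, SE 0.18, adjusted p = 0.797). Of the 27 with 4 values, both HT animals lay above both WT animals in 6, among them Col3a1, Postn and Mmp2, and below in 3, the matricellular genes Ctgf, Cyr61 and Nov, where 12.4% of all genes lay above and 19.2% below. The list's median was -0.07 without HT animal 1, -0.012 without WT animal 1 and 0.13 without WT animal 2.

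Across the whole table no gene was called different between HT and WT. Of 13183 genes tested, 0 were called higher and 0 lower (0% each), and none had an adjusted p under 0.05 at any fold. At an unadjusted p under 0.05 there were 274 genes higher (2.08%) and 524 lower (3.97%), 798 in all where 659 would be counted at that threshold if no gene differed. The median log2 difference over all genes tested was -0.05, and it was -0.006 without WT animal 1 and -0.06 without WT animal 2. The smallest adjusted p was 0.130. A gene had a median SE of 0.19 and a median half-width of its 95% interval of 0.43 on the log2 scale. Permuting labels of 2 against 2 animals gives 6 arrangements and no two-sided exact p below 0.333, so the p-values rest on the spread pooled over the 9 groups of the series.

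**Figure D2:**
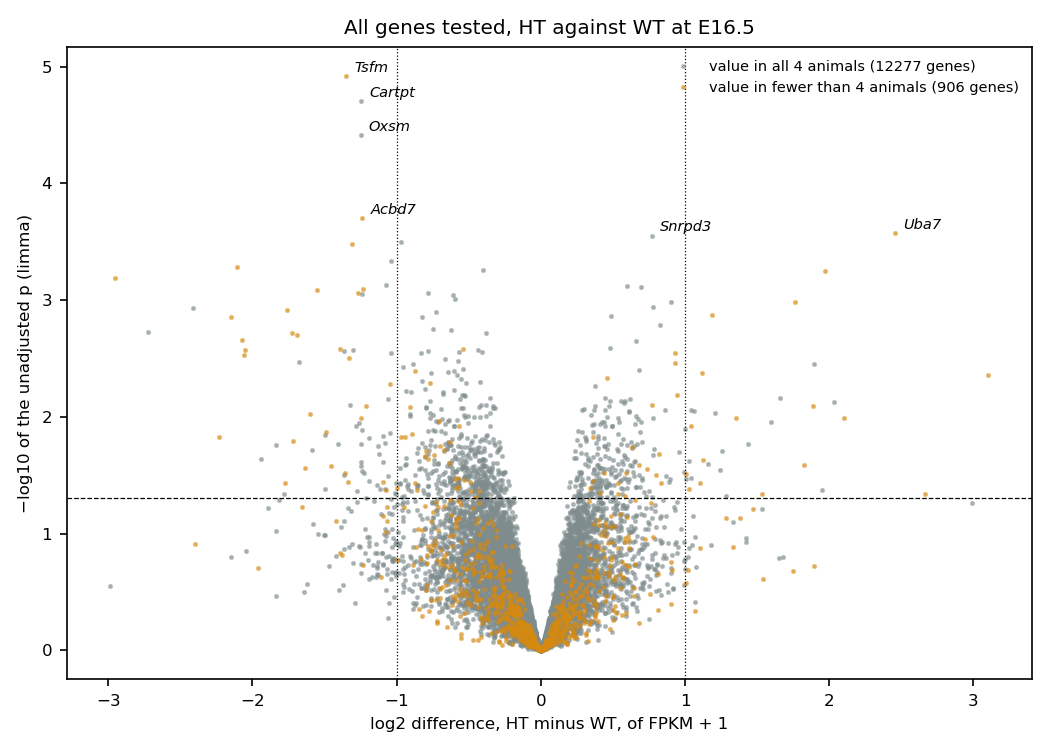
Each point is a gene, at its log2 difference of FPKM + 1 (HT minus WT, E16.5) and the -log10 of its unadjusted limma p. The dashed line marks the unadjusted threshold of 0.05 and the dotted lines a 2-fold difference. Grey points have a value in all 4 animals (12277 genes) and orange points in fewer (906 genes). Cartpt, Oxsm and Tsfm lie furthest up on the lower side, and no point passes the adjusted threshold.

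Since no gene was called, the 10 genes of smallest p in each direction are given as values that did not pass the test. On the lower side, Cartpt, a neuropeptide precursor, was at 1.22 and 0.888 FPKM in HT and 3.77 and 3.93 FPKM in WT (log2 difference -1.24, SE 0.15, adjusted p = 0.130). Oxsm, the condensing enzyme of mitochondrial fatty acid synthesis, was at 0.568 and 1.44 FPKM against 3.44 and 3.88 (-1.25, SE 0.19, adjusted p = 0.170). Tsfm, a mitochondrial translation elongation factor, was at 17.0 and 19.6 FPKM in WT and 6.53 FPKM in HT animal 2, with no value in HT animal 1 (limma adjusted p = 0.130). The HT value of Tsfm came from lane 6 alone and both WT values from lane 7 alone, so genotype and lane cannot be told apart for it. The KO animals were in between for all 3, at 2.28 and 2.29 FPKM of Cartpt, 2.91 and 3.28 FPKM of Oxsm and 11.2 and 13.4 FPKM of Tsfm. Chst9, a sulfotransferase of carbohydrates, was at 0.652 and 0.542 FPKM against 2.23 and 2.04, and here the KO animals were close to HT at 0.835 and 0.654 FPKM. Ano2, a calcium-activated chloride channel of olfactory neurons, was at 0.358 and 0.440 FPKM in HT and 1.78 and 1.95 FPKM in WT. Chchd6, of the mitochondrial cristae complex, was the most abundant, at 24.6 and 25.7 FPKM against 32.3 and 35.1. The other 4, Acbd7, Pik3cd, B3galt6 and Sncb, lacked a value in 1 of the 4 animals.

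On the higher side, 6 of the 10 genes had a value in all 4 animals. Snrpd3, a core protein of the spliceosomal snRNPs, was at 46.1 and 57.4 FPKM in HT and 30.9 and 28.7 FPKM in WT, with the KO animals at 32.7 and 26.7 FPKM (log2 difference HT minus WT 0.77, SE 0.15, adjusted p = 0.545). Utp11l, a factor of small ribosomal subunit processing, was at 41.4 and 41.6 FPKM against 16.3 and 28.8, and Ifrd2 at 24.1 and 24.5 FPKM against 15.5 and 13.8. For these 3 genes the HT levels, as means of 2 lanes, were above those of both the WT and the KO animals. For Snrpd3 this rested on lane 7 in HT animal 1, which had 25.7 FPKM in lane 6, below both WT animals, and 66.4 FPKM in lane 7. Egr3, an immediate early transcription factor, was at 2.89 and 2.44 FPKM against 0.969 and 1.32, and Zswim7, which acts in homologous recombination, at 7.46 and 7.15 FPKM against 4.82 and 5.05. 2810403A07Rik was at 24.5 and 26.9 FPKM against 15.1 and 18.3. For it WT animal 2 had 24.9 FPKM in lane 6, above the 23.9 FPKM of HT animal 1 in that lane, and 11.7 FPKM in lane 7. Nr1d1, the circadian repressor Rev-erbα, stood at 6.68 and 6.70 FPKM in HT and 1.26 FPKM in WT animal 1, with no value in WT animal 2. Each of these values came from 1 lane, lane 7 in HT animal 1 and lane 6 in HT animal 2 and WT animal 1. Uba7, Gapdh and Cd46 each rested on 1 HT and 1 WT animal.

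The cartilage genes had the largest median difference of the tissue lists, and were lower in HT. Of the 17 tested, none was called, but both HT animals lay below both WT animals in 16, against a background of 19.2% of genes, and the median log2 difference was -1.03, against -0.05 over all genes. Col2a1, the main collagen of cartilage, was at 411 and 331 FPKM in HT and 651 and 772 FPKM in WT (log2 difference -0.94, SE 0.78, 95% interval -2.64 to 0.76, adjusted p = 0.837). Col9a2 and Col9a3, chains of the collagen on its fibril surface, were at 110 and 93.1 FPKM against 173 and 261, and at 110 and 84.4 FPKM against 227 and 201. Comp, a cartilage matrix protein, had an unadjusted p of 0.023, at 7.98 and 8.98 FPKM against 46.9 and 26.7. Ucma, of upper-zone chondrocytes, had an unadjusted p of 0.037, at 4.17 and 5.03 FPKM against 18.8 and 5.33. Sox9, the transcription factor that sets the chondrocyte fate, was the exception, at 14.3 and 8.20 FPKM against 11.2 and 9.43 with overlapping groups. The summed level of the 17 genes was 1342 and 999 FPKM in HT, 2163 and 2423 FPKM in WT and 2543 and 2560 FPKM in KO, so that the HT animals were lower than the other 4. In bulk tissue, fewer cells of a type and less RNA per cell cannot be told apart. The SE of a gene is pooled over the 9 groups of the series, and at E15.5 the WT animals were far apart in these genes, with list medians of -1.89 and 0.57 around the mean of that age.

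Genes of the oral epithelium stood higher in HT. The periderm and cornified list had 23 genes tested, of which 5 had an unadjusted p under 0.05 and all 5 were higher in HT. Both HT animals lay above both WT animals in 16 of the 21 that had 4 values, and in none below, against 12.4% and 19.2% of all genes. The median log2 difference was 0.79, and no member was called. Krt4, a keratin of mucosal epithelium, was at 159 and 109 FPKM in HT and 59.6 and 57.3 FPKM in WT (log2 difference 1.16, SE 0.45, adjusted p = 0.797). Its partner Krt13 was at 507 and 331 FPKM against 205 and 239, and Krt6a at 177 and 186 FPKM against 95.7 and 127. Sprr3, a small proline-rich protein of the cornified envelope, was at 73.8 and 40.8 FPKM against 20.5 and 24.4, and Calml3, a calmodulin-like protein of epithelium, at 31.3 and 19.2 FPKM against 11.2 and 11.8. The HT animals were uneven: the list's median deviation from the mean of the 4 animals was 0.71 in HT animal 1 and 0.05 in HT animal 2, against -0.50 and -0.27 in the WT animals. Krt10, a keratin of suprabasal cells, was at 58.4 FPKM in HT animal 1 and 10.7 FPKM in HT animal 2. Without HT animal 1 the list's median was 0.45, and without HT animal 2 it was 1.18. The KO animals were as uneven, with Krt13 at 539 and 334 FPKM.

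Basal epithelial genes were also at a higher level in HT, by a smaller median. Of 23 tested, both HT animals were above both WT animals in 14 and below in 1, Epcam, against 12.4% and 19.2% of all genes, and the median log2 difference was 0.34. Krt5 and Krt14, the keratin pair of basal cells, were at 286 and 209 FPKM against 148 and 169, and at 181 and 125 FPKM against 80.1 and 99.3. Krt15 was at 268 and 270 FPKM against 161 and 170 (log2 difference 0.70, SE 0.35, adjusted p = 0.807). Dsg3, a desmosomal cadherin, was the only member with an unadjusted p under 0.05, at 15.2 and 11.3 FPKM against 6.72 and 7.85.

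**Figure D3:**
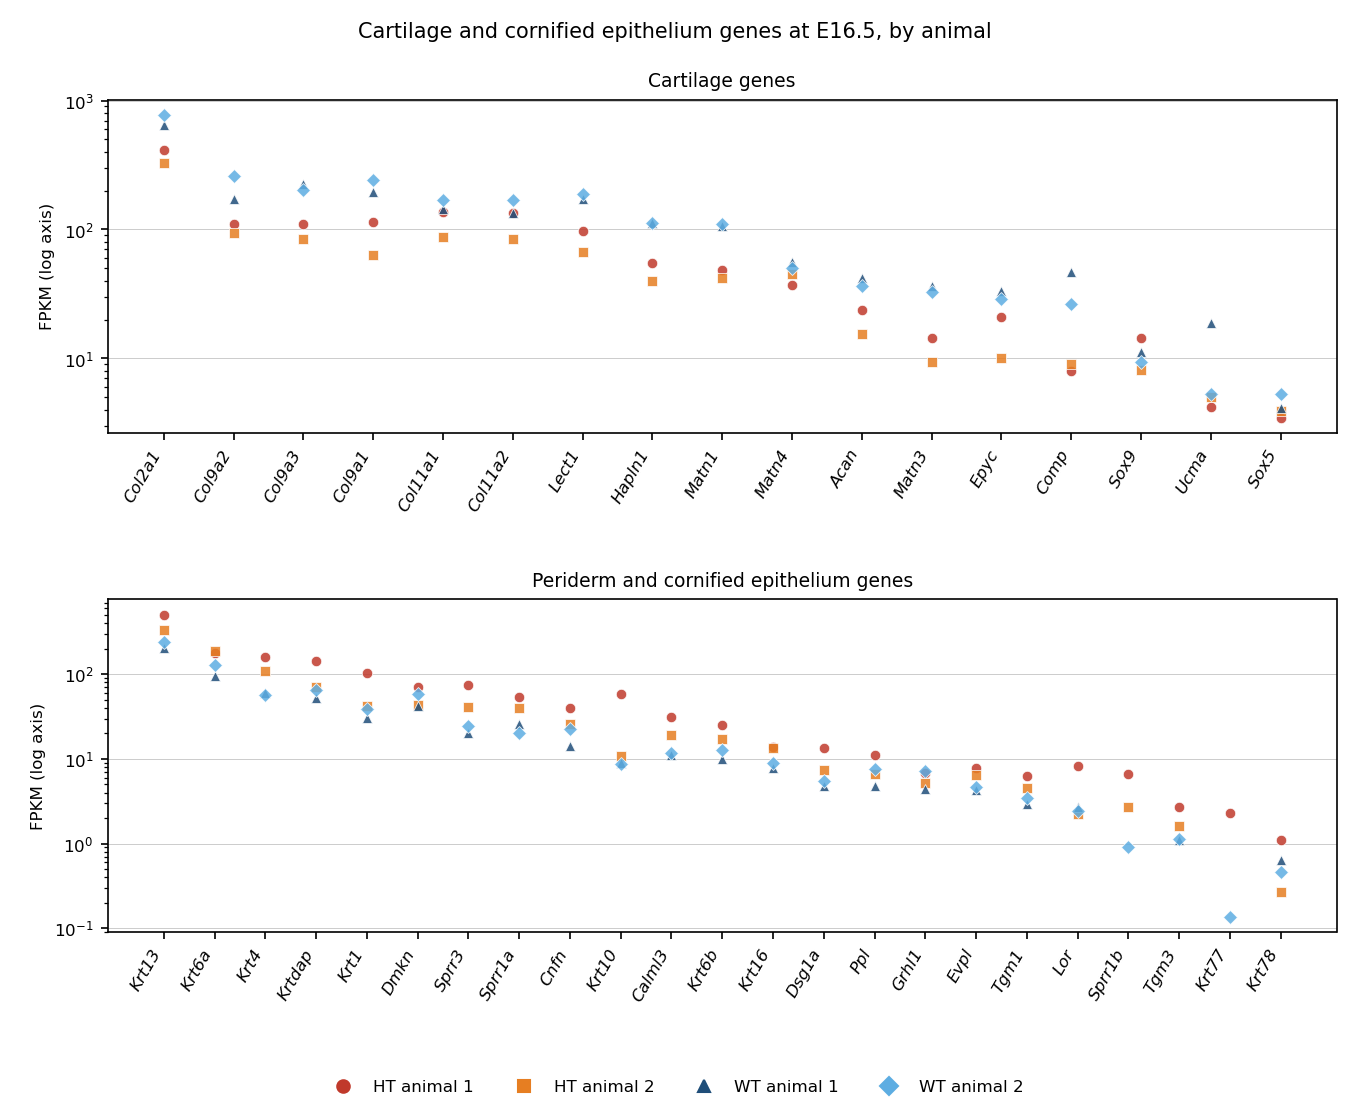
FPKM on a log axis of the cartilage genes (upper panel) and of the periderm and cornified epithelium genes (lower panel) in each of the 4 animals, ordered by mean level. The HT points lie below the WT points in 16 of 17 cartilage genes, and above them in 16 of the 21 epithelial genes with 4 values. A missing point means no value in that animal.

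The mesenchyme of the shelves and its matrix also stood higher in HT. Of 26 palatal mesenchyme genes, both HT animals were above both WT animals in 11 and below in none, where 12.4% of all genes lay above and 19.2% below, with a median log2 difference of 0.28. Osr2, a transcription factor of palatal growth, was at 24.6 and 25.8 FPKM in HT and 15.1 and 15.3 FPKM in WT (log2 difference 0.70, SE 0.23, adjusted p = 0.797), and Barx1, a homeobox gene of the jaw, at 38.3 and 57.1 FPKM against 30.8 and 28.4. These 2 were the members with an unadjusted p under 0.05. Among the most abundant members, Postn, periostin, was at 489 and 504 FPKM against 374 and 316, Prrx1 at 115 and 66.6 FPKM against 58.5 and 87.05, and Pdgfra at 48.8 and 38.1 FPKM against 37.4 and 44.3. Only for Postn did the groups not overlap. Of 22 genes of connective tissue matrix, 6 had an unadjusted p under 0.05, all higher in HT, against 2.08% of all genes higher and 3.97% lower. Both HT animals were above both WT animals in 9 and below in none, and the lowest log2 difference of any member was 0.03. The 6 were Col3a1, given above, Col6a1, Col6a2, Col5a2, Col12a1 and Vcan. Vcan, the proteoglycan versican, was at 44.3 and 39.2 FPKM against 23.3 and 26.3. Col1a2, the most abundant, was at 2588 FPKM in HT animal 1 and between 1504 and 1660 FPKM in the other 3.

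Bone genes were mixed. Of 18 tested, 5 had both HT animals above both WT animals and 1, Ibsp, had them below, against 12.4% and 19.2% of all genes, with a median log2 difference of 0.30. The median rested on single animals, being 0.06 without HT animal 1, 0.60 without HT animal 2, 0.17 without WT animal 1 and 0.47 without WT animal 2. Ifitm5, made by osteoblasts as they mineralise matrix, was at 84.7 and 68.7 FPKM in HT and 32.2 and 23.6 FPKM in WT (log2 difference 1.44, SE 0.49, adjusted p = 0.797). Bglap2, an osteocalcin gene that shares reads with its near-identical copy Bglap, was at 28.3 and 21.2 FPKM against 16.5 and 13.7. Ibsp, bone sialoprotein, was at 458 and 616 FPKM against 777 and 743. The osteoclast list had a median of -0.05 with 11 of 12 groups overlapping, against 8402 of all 12277 genes with 4 values. The list's median was -0.41 without HT animal 1 and 0.30 without HT animal 2. Its 3 most abundant members, Ctsk, Acp5 and Mmp9, were each higher in HT animal 1 and WT animal 2 than in the other 2 animals. The tooth list had 13 genes. No locus was found in any of the 4 animals for 5 of them, among them the enamel and dentin genes Enam and Dspp, and Amelx shared its locus with another gene. Of the 5 tooth genes tested, 4 had both HT animals above both WT animals, against 12.4% of all genes. The median of the 5 was 0.45, 0.23 without HT animal 1 and 0.70 without HT animal 2. Odam, a protein of enamel-forming cells, was at 1.98 and 1.32 FPKM in HT and 0.766 and 0.911 FPKM in WT.

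Several lists of other tissues of the nasal and oral region were lower in HT, some in level only. Of 12 olfactory and respiratory epithelium genes with 4 values, both HT animals were below both WT animals in 7 and above in none, where 19.2% of all genes lay below and 12.4% above, and the median log2 difference over 13 was -0.69. It was -0.27 without WT animal 2, -0.38 without HT animal 2 and -0.34 over genes measured in every animal of the series. Cnga2, a channel subunit of olfactory neurons, was at 0.673 and 1.02 FPKM in HT and 3.11 and 4.44 FPKM in WT, and Aqp4, a water channel, at 5.21 and 4.27 FPKM against 9.49 and 11.7. The most abundant member, Bpifa1, a secreted airway protein, was at 239 and 106 FPKM against 283 and 260. The list's summed level was 491 and 312 FPKM in HT and 547 and 684 FPKM in WT. Gland genes had a median of -0.43, with 7 of 10 lower in HT and none higher against the same shares of all genes. The median was -0.78 without WT animal 1 and -0.31 without WT animal 2. The list's median deviation was -0.20 and -0.23 in the HT animals, -0.12 in WT animal 1 and 0.56 in WT animal 2. WT animal 2 was the highest for most, as for Krt8 at 131 FPKM against 73.3 to 77.5 FPKM in the other 3. Aqp5, a water channel of serous glands, was at 0.741 and 0.886 FPKM in HT and 2.32 and 4.53 FPKM in WT. Brain, choroid plexus and eye genes had a median of -0.49, with 6 of 11 lower and none higher, again against 19.2% and 12.4% of all genes, and -0.32 without WT animal 2. Several Hox genes had a value in WT animal 1 only, among them Hoxa4, Hoxa5, Hoxb3 and Hoxc4. They stood at 5.03, 7.58, 6.15 and 4.25 FPKM in that animal. The pituitary gene Gh also had a value there only, at 3.48 FPKM. Conversely, Nkx2-1 of the brain list had a value in HT animal 2 only, at 2.14 FPKM, as did Rax and Six6. None of these genes had values in both genotypes, so their differences were not tested. The part of other tissues in the dissected palate in the values above was not tested.

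Nerve and muscle genes varied between animals of one genotype by more than between genotypes. In 19 neuronal genes with 4 values the groups overlapped in every one, against 8402 of all 12277 such genes. The list's median log2 difference was -0.62. It turned to 0.13 without HT animal 1 and 0.25 without WT animal 1, and was -1.38 without HT animal 2 and -1.65 without WT animal 2. Their summed level was 179 and 512 FPKM in HT and 1157 and 264 FPKM in WT. Tubb3, a neuronal tubulin, was at 39.3 and 104 FPKM in HT and 254 and 66.2 FPKM in WT, with WT animal 1 the highest and HT animal 1 the lowest. Skeletal muscle genes summed to 640 and 2222 FPKM in HT and 1168 and 375 FPKM in WT. Mylpf, a fast myosin light chain, was at 132 and 503 FPKM in HT and 214 and 68.9 FPKM in WT, so that HT animal 2 was the highest and WT animal 2 the lowest. Against the same share of all genes, the groups overlapped in 25 of 27 muscle genes. Their median difference of 0.63 was -0.07 without HT animal 2, 0.17 without WT animal 2, 1.38 without HT animal 1 and 1.39 without WT animal 1.

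**Figure D4:**
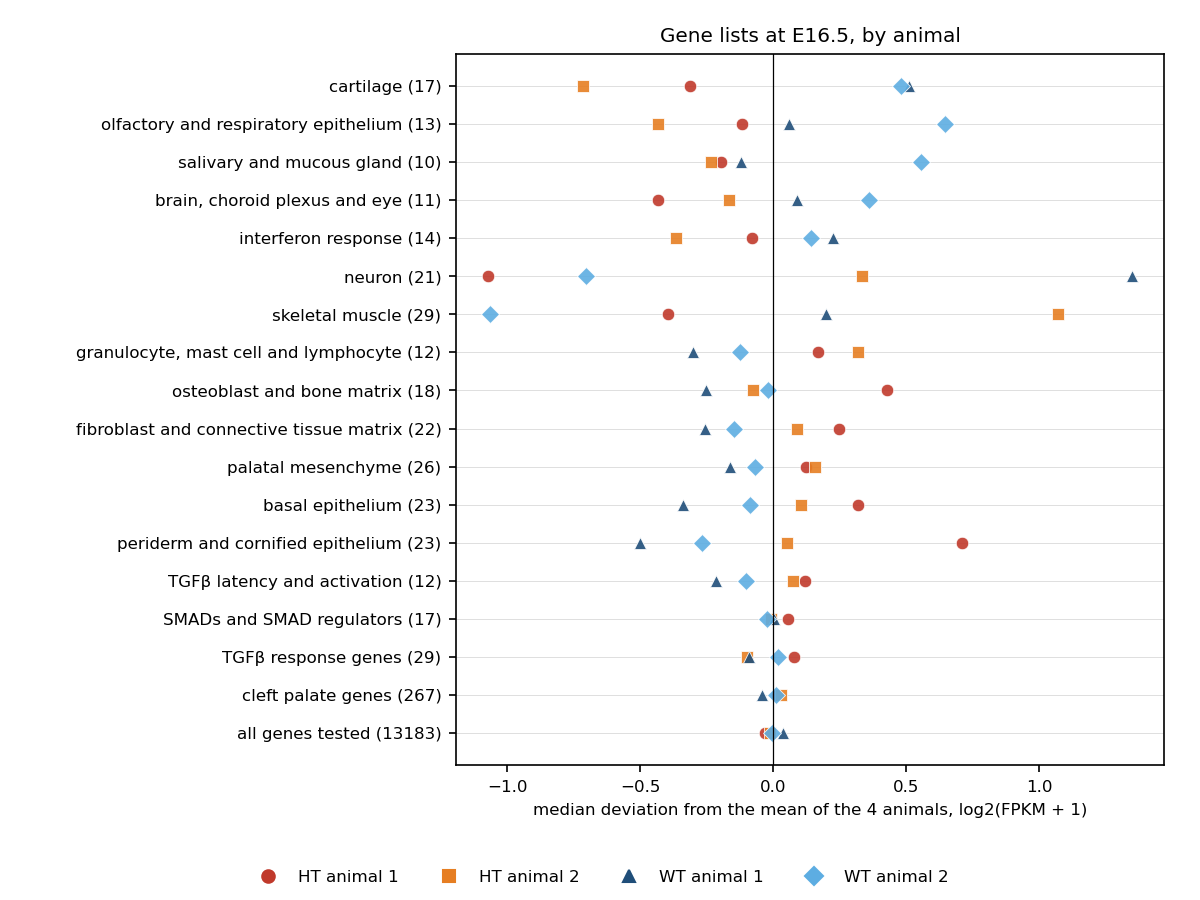
For each gene list (number of genes tested in brackets), the median over its genes of each animal's deviation from the mean of the 4 animals, on the log2(FPKM + 1) scale. Both WT points lie right of both HT points for cartilage (0.51 and 0.48 against -0.31 and -0.72) and for olfactory and respiratory epithelium. They lie left of both HT points for basal epithelium, periderm and cornified epithelium, palatal mesenchyme and connective tissue matrix. For neuron and skeletal muscle the animals of one genotype lie far apart.

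The interferon response genes were lower in HT at low levels. Of 14 tested, 9 had both HT animals below both WT animals and none above, against 19.2% of all genes below and 12.4% above. The median log2 difference was -0.32, and it was -0.11 when 5 rather than 1 was added before the log and -0.50 with 0.1 added. It was -0.53 without HT animal 1 and -0.21 without HT animal 2. The list's median deviation was -0.08 in HT animal 1 and -0.36 in HT animal 2, against 0.23 and 0.14 in the WT animals. Usp18, which removes the ubiquitin-like protein ISG15, was at 3.10 and 2.12 FPKM in HT and 4.07 and 5.45 FPKM in WT, and Irf7, a transcription factor, at 1.80 and 1.27 FPKM against 3.13 and 2.34. Macrophage genes had a median of -0.04, between -0.02 and 0.08 when 1 animal was left out. Their groups overlapped in 13 of 16, against 8402 of all 12277 genes with 4 values. Of 11 genes of granulocytes, mast cells and lymphocytes with 4 values, 8 were higher in HT and 1, Kit, was lower, against 12.4% and 19.2% of all genes. Kit, the receptor that mast cells need, was the only member with an unadjusted p under 0.05, at 7.03 and 6.68 FPKM in HT and 11.03 and 8.05 FPKM in WT. S100a9, a neutrophil protein, was at 34.9 and 41.1 FPKM against 19.5 and 27.7, and Cma1, a mast cell protease, at 17.4 and 22.2 FPKM against 12.5 and 12.9.

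Among the other signalling pathways, the hedgehog list had 3 of 15 genes at an unadjusted p under 0.05, all higher in HT, against 2.08% of all genes higher and 3.97% lower. They were the receptor Ptch1, at 29.4 and 28.3 FPKM in HT and 19.7 and 21.7 FPKM in WT, and the transcription factors Gli1, at 25.8 FPKM in both HT animals against 17.1 and 19.96, and Gli2, at 9.07 and 8.07 FPKM against 5.13 and 7.32. Ptch1 and Gli1 are themselves induced by the pathway. Its ligand Shh was at 4.44 and 4.17 FPKM against 3.16 and 2.90. None of these differences passed the test, and the list's median was 0.11, 0.05 without WT animal 1, 0.22 without HT animal 2 and 0.31 without WT animal 2. The Wnt list had a median of 0.14 with 2 of 27 at that threshold, Tcf7 and Wnt16, both higher, and its median was 0.009 without HT animal 1 and 0.24 without HT animal 2. The BMP, FGF and Notch lists had medians of 0.01, -0.04 and -0.04, each of which changed sign when HT animal 1 was left out. Bmp4 was at 14.0 and 13.9 FPKM against 12.5 and 12.4, and Bmp7 at 14.9 and 11.9 FPKM against 15.2 and 17.5.

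The genes the study lists for cleft palate had a small median difference. Of 267 tested, none was called, 10 were higher and 6 lower at an unadjusted p under 0.05, against 2.08% of all genes higher and 3.97% lower, and the median log2 difference was 0.04. Both HT animals were above both WT animals in 55 of 255 and below in 38, so that more lay above than below, where over all genes 12.4% lay above and 19.2% below. Besides Osr2, Fbn1, Vcan, Ptch1 and Gli2, the higher ones were Dlx1 and Dlx2, homeobox genes of the jaw, at 10.2 and 18.9 FPKM against 6.83 and 6.04, and at 7.63 and 15.3 FPKM against 5.18 and 4.68, with Zeb2, Scarf2 and Fras1. The lower ones included Tctn2 and Wdr19, which act in the primary cilium, and Tshz1, a zinc finger transcription factor. Tctn2 was at 11.6 and 11.7 FPKM against 12.6 and 18.8, and Wdr19 at 5.59 and 5.15 FPKM against 7.12 and 7.66. Among 7 tested genes that the study singled out on these samples, whose choice is therefore no independent evidence, Lhx8, a homeobox gene of the palate, was at 14.6 and 21.1 FPKM against 9.91 and 9.94, and Shh was given above. For Lhx8, HT animal 1 had 19.2 FPKM in lane 6 and 10.1 FPKM in lane 7, the latter below the 10.3 FPKM of WT animal 1 in that lane. The groups overlapped for Chrng, Foxc2, H19, Meox2 and Six3. H19 was at 3199 and 3568 FPKM in HT and 2586 and 3285 FPKM in WT.

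Genes of growth and metabolism had small median differences. The cell cycle list had a median of 0.12, which was 0.06 without WT animal 1 and 0.20 without WT animal 2. Of its 25 genes 3 were higher at an unadjusted p under 0.05, Mki67, Ccna2 and Mcm5, against 2.08% of all genes. In 8 of the 24 with 4 values both HT animals lay above both WT animals, and in none below, against 12.4% and 19.2% of all genes. Mki67, a marker of dividing cells, was at 27.6 and 28.3 FPKM in HT and 18.9 and 23.1 FPKM in WT. The cytoplasmic ribosomal protein genes had a median of 0.07, between -0.04 and 0.19 when 1 animal was left out. Rps28, one of them, was at 147 and 144 FPKM against 281 and 425 (log2 difference -1.24, SE 0.24, adjusted p = 0.545). Ribosomal protein genes have many processed copies that can take their reads, so this value is uncertain. Of 44 genes of oxidative phosphorylation with 4 values, 11 were lower in HT and 1 higher, near the 19.2% of all genes that lay below, and the median was -0.05, between -0.14 and 0.03 when 1 animal was left out. Igf2, an imprinted growth factor, was at 895 and 1004 FPKM against 791 and 845. Actb stood at 860 and 945 FPKM against 899 and 868. The housekeeping list had a median of 0.00 over 13 genes, and -0.06 in a fit of the 4 HT and WT animals only. Of its 12 genes with 4 values, 4 were lower in HT and none higher, against 19.2% and 12.4% of all genes. Its largest difference, 1.97 for Gapdh, rested on 1 lane of HT animal 1 and on WT animal 1, which had 47.8 FPKM in lane 6 and 444 in lane 7.

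Against the homozygous null palate, 0 of 13166 genes were called either way (0%), and at an unadjusted p under 0.05 there were 488 genes higher in HT (3.71%) and 181 lower (1.37%). KO animal 1 was the least precise of the age, with a median half-width of 18.6%. Scaling all libraries to a common sum turned that split to 186 higher and 481 lower, so no direction is read from it. The list medians, HT minus KO, were -0.95 for cartilage, 0.05 for the periderm and cornified list and -0.43 for skeletal muscle. KO against WT shares the WT animals with HT against WT, and had 0 of 13137 genes called, with medians of -0.12 for cartilage and 0.65 for the periderm and cornified list. Y-linked genes had loci in both KO animals and in neither WT animal, so genotype and sex cannot be told apart between KO and WT. Side by side, Krt4 was at 159 and 109 FPKM in HT, 179 and 124 FPKM in KO and 59.6 and 57.3 FPKM in WT, while Col9a3 was at 110 and 84.4, 153 and 199, and 227 and 201 FPKM.

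At the earlier ages the same genotypes gave other orders. HT against WT had 1 gene called of 12668 at E14.5, higher (0.00789%), and 9 of 12738 at E15.5, 1 higher (0.00785%) and 8 lower (0.0628%). No gene's difference at E16.5 was called different from that at E14.5 (0 of 12473; 137, or 1.10%, higher and 478, or 3.83%, lower at an unadjusted p under 0.05) or from that at E15.5 (0 of 12588; 740, or 5.88%, and 854, or 6.78%). Krt4 had a log2 difference, HT minus WT, of -0.81, -1.11 and 1.16 at the 3 ages in order, and the change from E15.5 to E16.5 was 2.27 (adjusted p = 0.226). Col9a2 had -0.49, 1.18 and -1.06, and its change from E15.5 was -2.25 (adjusted p = 0.307). Averaging each animal's list median, the periderm and cornified list was higher by 0.77 in HT at E16.5 and had a difference of -1.50 at E15.5. At E15.5 WT animal 1 stood apart, at 1.71 above the mean of the 4 animals for that list and -1.89 for cartilage. The sexes differed too: Y-linked genes had loci in 0 of 2 HT and 2 of 2 WT animals at E14.5, and in 0 of 2 and 1 of 2 one day later. Genotype and sex cannot be told apart at E14.5.

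**Figure D5:**
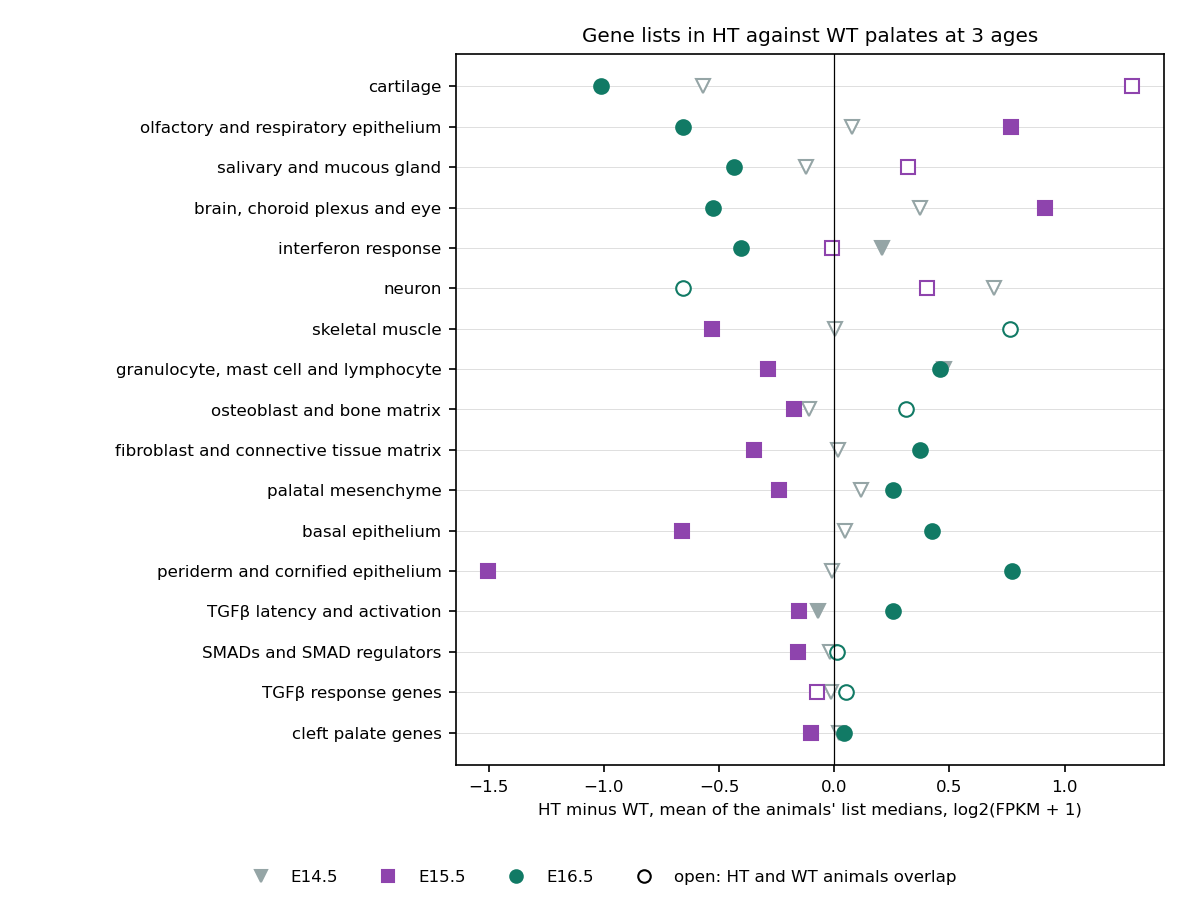
For each gene list, HT minus WT of the animals' list medians on the log2(FPKM + 1) scale (triangles E14.5, squares E15.5, circles E16.5). Filled points have both animals of one genotype above both of the other, and open points overlap. The periderm and cornified list lies at 0.77 at E16.5 and -1.50 at E15.5, and cartilage at -1.01 and 1.29.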

How the data were processed

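Per the labels and the submitters' processing notes, the authors checked reads with FastQC 0.10.1, aligned them to mm9 with TopHat 1.4.1 and assembled each library alone with Cufflinks 1.3.0. The deposited files give, for each library, unnamed loci with their FPKM and its 95% confidence bounds; they hold no counts, strand or gene names, and read depth is not used here. Loci whose FPKM estimate was not marked OK were left out.

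Loci were joined by position to GENCODE vM1 genes (NCBIM37, the same build). A gene's FPKM is the mean of its loci's FPKM weighted by the share of the gene's exonic bases that each covers, with uncovered bases at 0. A gene had no value where its locus was shared with another gene by at least 50% of exonic bases. Lanes were averaged within an animal on the FPKM scale, and where 1 lane had no value the other was used alone. Levels as log2(FPKM + 1) were fitted with limma 3.58.1 in R 4.3.3 (eBayes with trend) over all 18 animals of the 9 groups. Genes with at least 1 FPKM in 2 animals, and a value in at least 1 animal of each group compared, were tested, so some genes rest on fewer than 4 animals. Adding 1 understates the difference of low genes. A call was a Benjamini-Hochberg adjusted p under 0.05 with at least a 2-fold change. All p-values are two-sided. The scripts were tested on simulated data.

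Lanes 6 and 7 held every E16.5 animal. Animals of the same replicate number were not paired: their deviations from the group means had a correlation of -0.508 between HT and WT. Named genes were Tgfb3, the 10 of smallest p in each direction, genes the study singled out, and the 3 most abundant members of each of 48 gene lists; members named for an unadjusted p under 0.05 or for their order were chosen after their values were seen. The members and lists were chosen with earlier results of these data known. A few named genes are not reported here. No list was tested: lists are described by counts and medians. Alternatives changed the pseudocount, filter, scaling, lanes, animals, block, weights and threshold.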

Additional observations from a re-analysis of the deposited data

Results flagged for a closer look

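Loci lying wholly inside Tgfb3 introns were outside the gene levels compared above. The HT animals had 1 each, at 7.23 FPKM in HT animal 1 (lane 7) and 14.4 FPKM in HT animal 2 (lane 6), and the WT libraries had none.

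For 13 of 46 lists compared across ages, both HT animals lay on one side of both WT animals at E16.5 and on the other side at an earlier age. None of these differences was tested. With 2 against 2 animals the smallest two-sided exact p is 0.333 at each age, so groups often separate without a difference. The values are HT minus WT of the animals' list medians on the log2(FPKM + 1) scale, E16.5 first. Against E15.5, periderm and cornified epithelium had 0.77 and -1.50, basal epithelium 0.43 and -0.66, connective tissue matrix 0.37 and -0.35, palatal mesenchyme 0.26 and -0.24, the hedgehog pathway 0.23 and -0.16, regulators of epithelial-mesenchymal transition 0.11 and -0.24, and cleft palate genes 0.041 and -0.10. Granulocyte, mast cell and lymphocyte genes had 0.46 and -0.29, and hair follicle genes 0.13 and -0.59. The hair follicle values rested on 4 genes, and over the 7 tested at E16.5 the median log2 difference was -0.05. Olfactory and respiratory epithelium had -0.66 and 0.77, and brain, choroid plexus and eye genes -0.53 and 0.91. In some of these lists the E15.5 WT animals lay far apart. Their list medians were 1.71 and 0.008 for periderm and cornified epithelium, -1.03 and 0.25 for olfactory and respiratory epithelium, and -1.13 and 0.23 for brain, choroid plexus and eye. In others they were closer, as for palatal mesenchyme at 0.09 and 0.18. TGFβ latency genes had 0.26 at E16.5, -0.15 at E15.5 and -0.07 at E14.5. Interferon response genes had -0.41 at E16.5 and 0.21 at E14.5. Groups of 2 animals are too small for a test of outlying animals.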

How the results depend on the processing

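The 0 calls of HT against WT stayed at 0 in each direction under both other pseudocounts, both filters, both scalings, both smaller sets of animals, the replicate block, genes complete in every animal, missing loci set to 0, array weights, the adjusted p alone and a test against 1.5-fold. Lane 6 alone gave 1 lower gene (Oxsm), lane 7 alone 1 higher (Zfp385c) and 1 lower (Rccd1), and 1 best locus per gene 1 lower (Pik3cd). Leaving out 1 animal gave 0 to 3 higher and 1 to 5 lower genes; in these fits the lone animal is assumed to vary like the other groups. Without WT animal 2 the calls were Utp11l, Nfatc3 and Srxn1 higher and Actr10, Slc6a13, Rwdd2a, Shroom2 and Kcnd2 lower; without HT animal 1, Rabep2 lower; without HT animal 2, Gstm3 higher and Oxsm lower; without WT animal 1, 1 gene higher and Ubl4 lower. No list member was called under any of the 22 alternatives. HT against KO gave 0 to 1 higher and 0 to 1 lower genes when 1 animal was left out, with 1 lower without HT animal 1 and 1 each way without HT animal 2, and 0 otherwise. The difference between E16.5 and E14.5 gave 2 genes with a pseudocount of 0.1 and 1 under either scaling, and that between E16.5 and E15.5 gave 2 and 3 genes with pseudocounts of 0.1 and 5, 3 scaled to a common sum and 1 by median ratio. Leaving out 1 animal gave 0 to 1 for the first (1 without WT animal 2) and 0 to 2 for the second (1 without HT animal 1, 2 without WT animal 2). The cause of these calls was not tested.

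The replicate block gave 0 calls, and the numbers did not pair the animals. A crossed pairing (HT animal 1 with WT animal 2), chosen after seeing the data, gave 0 higher and 0 lower. Of 1049 list medians under the 22 alternatives, 96 moved by more than the spread between animals. Of 160 named genes, 62 changed sign under at least 1 alternative, and none of these had been called. Low genes are limited most by the pseudocount.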
